A study of Homo sapiens with 4 samples.

Results

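The insulin-like growth factor (IGF) family was followed here through 10 genes, chosen by name with earlier results of these data known. They were the ligand IGF2, the receptors IGF1R, INSR and IGF2R, and the binding proteins IGFBP2, IGFBP3, IGFBP4, IGFBP5, IGFBP6 and IGFBP7. These names match 11 of the 51103 rows of the tables, because IGF2 is listed under 2 Ensembl identifiers, of which ENSG00000284779 had no count in any library. Polyadenylated RNA was sequenced from cells labelled SCC-15, an oral squamous cell carcinoma line, in 2 libraries labelled REEP6-overexpression and 2 labelled NC, the negative control. All cells were grown in serum-containing medium. The overexpressing line was made with lentivirus, and the lysis step came after 48 hours per the labels. For the lentiviral promoter, the content of the control virus and the clonal origin of each line, the sources used here have no statement. Nothing in the labels tells whether replicates came from separate cultures, and a p-value then measures spread between libraries that may be technical.

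IGF2 and its relative IGF1 are secreted peptides that bind IGF1R, a receptor tyrosine kinase closely related to the insulin receptor INSR, and signal through IRS adaptors, PI3K, AKT and TOR to growth and survival. IGF2R, the cation-independent mannose 6-phosphate receptor, takes IGF2 up for lysosomal breakdown and has no kinase. The IGFBPs are secreted proteins that hold IGFs away from the receptors, and proteases that cut them release the ligand. In squamous carcinomas IGF1R signalling is known as a survival pathway next to that of the EGF receptor.

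Counts assigned to genes came to 12856256 and 15208629 for the controls and to 13236417 and 13302967 for the REEP6 libraries. The targeted gene REEP6 had counts of 348 and 468 in the controls against 649 and 680 with overexpression (log2 fold change 0.82 ± 0.108 SE, edgeR adjusted p 0.00119), so the labels and the transcript went the same way. Defining markers of squamous epithelium were nearly absent from all 4 libraries. Of 12 epithelial markers read here 1, EPCAM, passed the filter used for testing. KRT6A and DSG3 had 0 counts in every library, KRT5 had at most 2, KRT14 at most 6 and TP63 between 3 and 14. The summed level of the 12 markers was 1.13 and 1.85 FPKM (fragments scaled to gene length and library depth) in the controls against 2.23 and 2.55 FPKM with REEP6. Most of each sum was EPCAM, at 0.957 and 1.36 FPKM in the controls against 1.83 and 2.36 FPKM with REEP6. The label of the line was thus not borne out by these markers, and SCC-15 is used here as the label only.

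The binding protein genes IGFBP4 and IGFBP5 fell with REEP6 overexpression, and the receptor genes did not pass the test. IGFBP3 was also called lower, but the call was lost with DESeq2 (adjusted p 0.0525) and with limma. IGFBP5, the most abundant transcript of the family, fell 1.52-fold, IGFBP4 fell 1.41-fold and IGFBP3 fell 1.91-fold (n = 2 per group). IGFBP7 had a value of similar size and missed the threshold (1.48-fold lower, edgeR adjusted p 0.0583). Of 9 members tested 3 were lower and 0 higher (0 higher also with DESeq2 and limma), where 14.2% of all 13077 genes tested were lower and 10.9% higher at an edgeR adjusted p of 0.05. At an unadjusted p of 0.05 (edgeR) 4 of the 9 were lower and 0 higher, where 20.6% of all genes tested were lower and 18.2% higher. IGFBP3 reached the filter of 1 FPKM in both controls but in only 1 REEP6 library, so its call adds no support to the count of 3. With a minimum of 5 FPKM, which IGFBP3 did not meet, 2 of 7 members were lower (edgeR), where 1411 of 7425 genes were. The median log2 fold change of the 9 was -0.17, against -0.01 over all genes tested.

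The promoters of the 2 most abundant binding protein genes that fell and of IGFBP2, the gene next to IGFBP5, are shown because these neighbours had values in opposite directions. The stretches are the 150 bases before the RefSeq start site on GRCh38.p14, written in the direction of transcription. They are chr2:216695550-216695699 on the minus strand for IGFBP5, chr17:40443300-40443449 on the plus strand for IGFBP4 and chr2:216632678-216632827 on the plus strand for IGFBP2, the first of several starts listed for that gene. Capitals mark the motif matches described next.
IGFBP5: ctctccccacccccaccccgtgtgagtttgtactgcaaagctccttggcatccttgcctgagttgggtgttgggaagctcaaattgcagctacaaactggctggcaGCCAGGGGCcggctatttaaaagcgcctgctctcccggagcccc
IGFBP4: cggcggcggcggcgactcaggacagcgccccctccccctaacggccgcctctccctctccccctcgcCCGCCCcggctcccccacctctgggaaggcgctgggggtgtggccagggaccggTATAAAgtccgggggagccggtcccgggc
IGFBP2: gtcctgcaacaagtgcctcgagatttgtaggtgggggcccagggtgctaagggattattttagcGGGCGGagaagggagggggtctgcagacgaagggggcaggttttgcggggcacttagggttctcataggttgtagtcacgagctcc

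Short motifs were searched on both strands in the 250 bases before each start, for the 8 members with a RefSeq promoter entry (IGF2 and IGFBP7 had none). They were a TATA box (TATAAA), a GC box (GGGCGG), AP-1 (TGANTCA), FOXO (TGTTTAC), AP-2 (GCCNNNGGC) and an E-box (CACGTG). Different motifs did not overlap in the printed stretches. IGFBP5 held the AP-2 letters at positions -44 to -36, letters that were in 4 of the 8 members (also IGF1R, INSR and IGFBP6, none of them called) and in 19.8% of all 35116 promoters. IGFBP4 held the letters TATAAA at -29 to -24, found in 10.7% of promoters, and a GC box at -83 to -78. Only these exact TATA box letters were searched, so variants of them, in IGFBP5 or elsewhere, were not counted. IGFBP2 held a GC box at -86 to -81 before this start, and one at -49 to -44 before another of its starts, which is not printed. The GC box was present in 7 of the 8 members, IGFBP5 being the exception, and in 42.6% of all promoters. AP-1 letters were in 0 of the 8 members and 6.57% of promoters, and FOXO letters were in IGFBP6 only, with 2.98% of promoters. These matches describe letters in a window and say nothing of binding.

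Counts assigned to the ligand genes were close to the floor of detection. IGF2 (chromosome 11, 2129112 to 2149603, minus strand) had counts of 9 and 6 in the controls against 5 and 19 with REEP6, or 0.1003, 0.0565, 0.0541 and 0.205 FPKM. The highest library was REEP6 replicate 2 and the lowest REEP6 replicate 1, so the groups overlapped. The exact Poisson 95% interval, which covers counting error only, ran from 1.62 to 11.7 for the count of 5 and from 11.4 to 29.7 for the count of 19. IGF2 did not reach the filter and was not tested with the others. A fit without the filter gave a log2 fold change of 0.78 ± 0.672 (SE, edgeR adjusted p 0.597). Its antisense gene IGF2-AS had counts of 1 and 0 in the controls against 6 and 8 with REEP6. The exons of IGF2 and IGF2-AS overlap on opposite strands, and no strand setting is stated for the counting. Reads in the shared stretch cannot be told apart. On the same strand, IGF2 shares exons with its second identifier, INS-IGF2 and AC132217.1, each with 0 counts in every library. How reads in these stretches were counted is not stated. Low counts thus need not mean a low level of IGF2 RNA. IGF1, INS and the imprinted neighbour H19 had 0 counts in all 4 libraries.

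**Figure D1:**
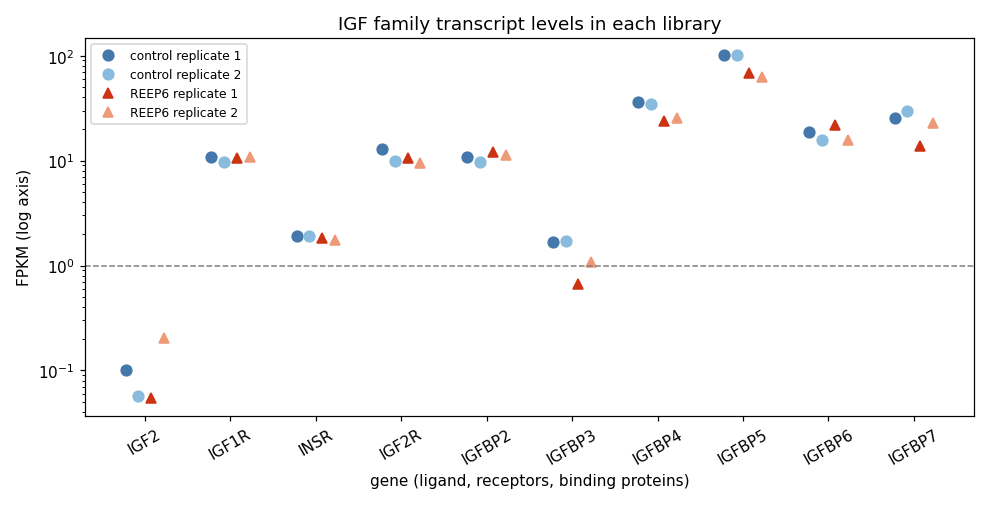
FPKM of the 10 IGF family genes in each library on a log axis, with circles for the 2 control and triangles for the 2 REEP6 libraries, and a dashed line at the filter of 1 FPKM. IGFBP5 lies highest (62.3 to 101 FPKM), IGF2 lies lowest (0.0541 to 0.205 FPKM), and the REEP6 triangles of IGFBP3, IGFBP4, IGFBP5 and IGFBP7 lie below their control circles.

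The receptor for both IGFs, IGF1R (chromosome 15, 98648539 to 98964530, plus strand), had 10.8 and 9.59 FPKM in the controls against 10.7 and 10.8 FPKM with REEP6. The libraries of the groups overlapped. Its log2 fold change was 0.10 ± 0.0899 (SE, n = 2 per group, edgeR adjusted p 0.433), with a 95% interval from -0.10 to 0.30. Scaling the libraries to equal FPKM sums turned the value to -0.03.

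INSR, the insulin receptor gene (chromosome 19, 7112255 to 7294034, minus strand), was expressed far below IGF1R, at 1.90 and 1.92 FPKM in the controls against 1.82 and 1.77 FPKM with REEP6. Both REEP6 values lay just below both controls, a gap of little size, and the test gave a log2 fold change of -0.06 ± 0.137 (SE, edgeR adjusted p 0.786; 95% interval -0.37 to 0.25). The ratio of IGF1R to INSR FPKM was 5.69 and 5.00 in the controls against 5.87 and 6.11 with REEP6. IGF1R was thus the more abundant of these kinase receptors in each of the 4 libraries.

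IGF2R, the clearance receptor (chromosome 6, 159969099 to 160113507, plus strand), had 13.0 and 9.90 FPKM in the controls against 10.5 and 9.41 FPKM with REEP6. Control replicate 1 stood above the other 3 libraries, and the groups overlapped. The log2 fold change was -0.17 ± 0.126 (SE, edgeR adjusted p 0.359; 95% interval -0.45 to 0.11). It became 0.04 without control replicate 1, and -0.33 without control replicate 2, where the gene was called lower (edgeR adjusted p 0.0419; adjusted p over 14 alternatives 0.017 to 0.849). A transcribed processed pseudogene on the same strand within an intron of IGF2R, AL353625.1, had counts of 146 and 173 in the controls against 59 and 52 with REEP6 (log2 fold change -1.41 ± 0.201 SE, edgeR adjusted p 0.00164, named after its values were seen). Its exons do not overlap those of IGF2R.

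IGFBP5 (chromosome 2, 216672105 to 216695525, minus strand), a binding protein that also attaches to extracellular matrix, had 101 and 101 FPKM in the controls against 67.7 and 62.3 FPKM with REEP6. The control libraries were nearly equal, and both REEP6 libraries lay well below them. Its mean went from 101 ± 0.607 to 65.03 ± 3.83 FPKM (SD, n = 2). This gave a log2 fold change of -0.61 ± 0.0856 (SE, edgeR adjusted p 0.00154), on counts of 8395, 9847, 5776 and 5341. By mean level it stood at the 97.1 percentile of all genes tested. Its value lay between -0.74 and -0.54 over the 14 alternatives, and it was called lower in each of them.

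IGFBP4 (chromosome 17, 40443461 to 40457731, plus strand), known mainly as an inhibitor of IGF action that the protease PAPPA cuts, had 35.9 and 35.0 FPKM in the controls against 24.0 and 25.4 FPKM with REEP6. The groups were again separate, with a small spread inside each. The log2 fold change was -0.49 ± 0.0903 (SE, edgeR adjusted p 0.00478). It ranged from -0.63 to -0.46 over the 14 alternatives and was called lower in each.

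IGFBP3 (chromosome 7, 45912245 to 45921874, minus strand), the main IGF carrier of blood plasma, was a low transcript in these cells. It had 1.67 and 1.70 FPKM in the controls against 0.661 and 1.07 FPKM with REEP6, so REEP6 replicate 1 alone was below the filter of 1 FPKM. The counts were 98 and 118 in the controls against 40 and 65 with REEP6. The log2 fold change was -0.93 ± 0.261 (SE, n = 2 per group, edgeR adjusted p 0.0285), the largest among the tested members and the least precise. The call was lost without REEP6 replicate 1 (log2 fold change of -0.63 at an edgeR adjusted p of 0.185), with DESeq2 (adjusted p 0.0525) and in the limma fit on log2(FPKM + 1) (limma adjusted p 0.0925) or log2(FPKM + 0.1) (limma adjusted p 0.108). Its adjusted p over the 13 alternatives that tested it ran from 0.000238 to 0.185.

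**Figure D2:**
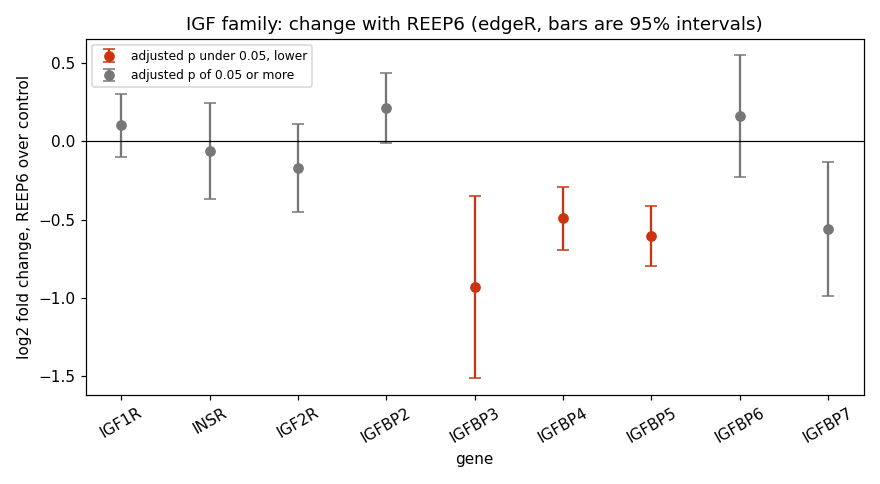
Log2 fold change of REEP6 over control for the 9 members tested with edgeR, with 95% intervals as bars. IGFBP3 (-0.93), IGFBP4 (-0.49) and IGFBP5 (-0.61) are in red as called lower, and the interval of IGFBP7 (-0.99 to -0.13) lies below 0 although its adjusted p of 0.0583 missed the threshold.

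IGFBP7 (chromosome 4, 57030773 to 57110385, minus strand), a relative of the other binding proteins with low affinity for IGFs, had 25.6 and 29.6 FPKM in the controls against 13.8 and 23.0 FPKM with REEP6. REEP6 replicate 1 was the lowest library by a wide margin, and REEP6 replicate 2 lay nearer to the controls than to its partner. The log2 fold change was -0.56 ± 0.192 (SE, edgeR adjusted p 0.0583). Without REEP6 replicate 1 it was -0.25 (edgeR adjusted p 0.301) and without REEP6 replicate 2 it was -0.97 (8.6e-07), so the value depended on which REEP6 library was used. It was called lower in 6 of 14 alternatives, with adjusted p from 1.96e-09 to 0.301. The gene overlaps exons of POLR2B, an RNA polymerase II subunit gene on the opposite strand, which fell as well (log2 fold change -0.48 ± 0.0839 SE, edgeR adjusted p 0.00371). Reads in the shared stretch cannot be told apart.

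IGFBP2 (chromosome 2, 216632828 to 216664436, plus strand), a binding protein with preference for IGF2, lies 7.67 kb from IGFBP5 in tail-to-tail orientation with no annotated gene between them. It had 10.8 and 9.75 FPKM in the controls against 12.1 and 11.3 FPKM with REEP6. Both REEP6 libraries were above both controls, opposite in direction to IGFBP5. The log2 fold change was 0.21 ± 0.101 (SE, edgeR adjusted p 0.15; 95% interval -0.01 to 0.44), which missed the threshold. With the replicate number as a block it was called higher (edgeR adjusted p 0.0267; range over 14 alternatives 0.0267 to 0.64). The ratio of IGFBP5 to IGFBP2 FPKM was 9.37 and 10.3 in the controls against 5.61 and 5.52 with REEP6.

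IGFBP6 (chromosome 12, 53097436 to 53102345, plus strand), which binds IGF2 with much higher affinity than IGF1, had 18.6 and 15.7 FPKM in the controls against 21.8 and 15.7 FPKM with REEP6. REEP6 replicate 1 was the highest library, and REEP6 replicate 2 was level with control replicate 2. Its log2 fold change was 0.16 ± 0.174 (SE, edgeR adjusted p 0.533; 95% interval -0.23 to 0.55), and it was -0.10 without REEP6 replicate 1.

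Ordered by mean FPKM over the 4 libraries, IGFBP5 (83.0) stood first, followed by IGFBP4 (30.1), IGFBP7 (23.0), IGFBP6 (18.0), IGFBP2 (11.0), IGF2R (10.7), IGF1R (10.5), INSR (1.85), IGFBP3 (1.27) and IGF2 (0.104). The ranges over libraries of both groups overlapped between IGFBP4 and IGFBP7, between IGFBP7 and IGFBP6, and among IGFBP2, IGF2R and IGF1R. By range these neighbours were not separated. Within each library, however, IGFBP4 lay above IGFBP7. The controls had 35.9 and 35.0 against 25.6 and 29.6 FPKM, and the REEP6 libraries 24.0 and 25.4 against 13.8 and 23.0 FPKM. IGFBP2 lay above IGF1R in each as well, but with only 10.82 against 10.81 FPKM in control replicate 1. IGFBP5 did not overlap with any other member. In FPKM, 5 of the 9 members tested (INSR, IGFBP3, IGFBP4, IGFBP5 and IGFBP7) had both REEP6 libraries below both controls, where 35.3% of all genes tested did, and IGFBP2 had both above, where 28.2% did.

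The summed FPKM of the 6 binding proteins was 194 and 192 in the controls against 140 and 139 with REEP6. IGFBP5 made up 52.3% and 52.3% of that sum in the controls against 48.3% and 44.9% with REEP6. IGFBP2 made up 5.58% and 5.07% in the controls against 8.62% and 8.13% with REEP6. The share of IGFBP4 was 18.5% and 18.2% in the controls, then 17.1% and 18.3%. Per FPKM of IGF1R the summed binding proteins came to 17.9 and 20.0 in the controls against 13.1 and 12.8 with REEP6. These sums are descriptions and were not tested.

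**Figure D3:**
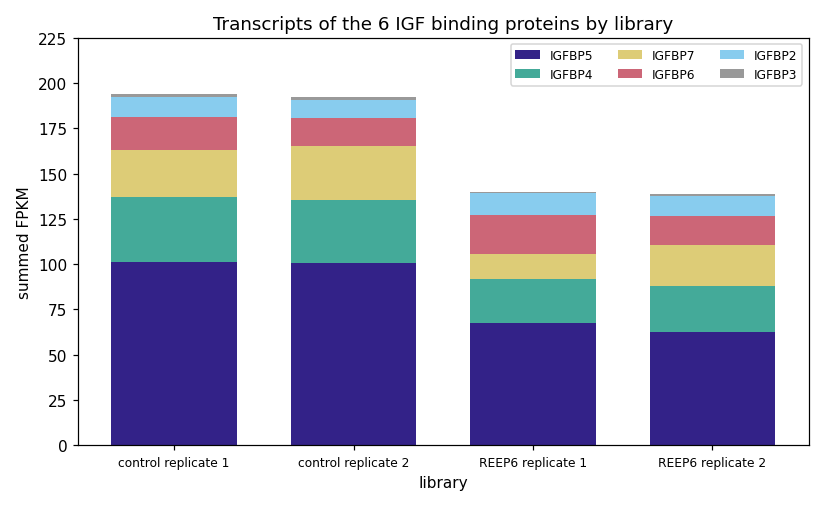
Stacked FPKM of the 6 binding protein genes in each of the 4 libraries, with 1 colour per gene. The bars reach 194 and 192 FPKM in the controls against 140 and 139 FPKM with REEP6, and the dark IGFBP5 segment is 101 FPKM tall in both controls and 67.7 and 62.3 FPKM tall with REEP6.

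Because fibroblasts also express IGFBP3, IGFBP4, IGFBP5 and IGFBP7, fibroblast markers were read beside them. Of 10 markers 4 were tested, and COL3A1, LUM, POSTN and PDGFRB fell, where 14.2% of all genes tested were lower. The filter bears on this count: POSTN passed it only through the controls (1.57 and 1.70 FPKM, then 0.456 and 0.289 FPKM), and PDGFRA, with 83 and 105 counts in the controls and 127 and 137 in the REEP6 libraries, went the other way and was not tested. The 10 markers summed to 36.6 and 34.5 FPKM in the controls against 18.3 and 18.1 FPKM with REEP6. Most of each sum was COL3A1, at 25.17 and 22.06 FPKM in the controls against 14.45 and 13.92 FPKM with REEP6. COL1A1 had between 32 and 53 counts and COL1A2 at most 6, and neither was tested. The defining markers DCN, FAP and THY1 had at most 2 counts in any library, and FAP had 0 in all. Endothelial markers summed to 0.758 and 0.822 FPKM in the controls against 0.541 and 0.595 FPKM with REEP6, with KDR at 0 counts, and leukocyte markers to between 1.72 and 3.14 FPKM, with CD68 and HLA-DRA at 0. Melanocyte markers summed to 1.52 and 1.65 FPKM in the controls against 0.849 and 1.21 FPKM with REEP6, with TYR at 0. In bulk RNA, fewer cells of a type and less RNA per cell cannot be told apart.

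Outside the 10 members, the pathway was read from 8 lists with 99 genes, of which 75 were tested. These lists too were chosen with earlier results of these data known, which limits what their shares can show. Together 14 (18.7%) were higher and 25 (33.3%) lower with REEP6, where 10.9% of all genes tested were higher and 14.2% lower. Their median log2 fold change was -0.19, against -0.01 over all genes tested. With FPKM scaled to equal sums the split was 6 higher and 33 lower, and the same scaling moved all 13077 genes to 661 higher (5.05%) and 2824 lower (21.6%).

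Among the other ligands and binding proteins 1 of 9 genes was tested. This was IGFBPL1, a binding protein-like gene, at 17.4 and 21.8 FPKM in the controls against 9.40 and 12.9 FPKM with REEP6. It fell by 0.79 on the log2 scale (SE 0.192, edgeR adjusted p 0.0162), and the call was lost without control replicate 2 (edgeR adjusted p 0.0624) and in the limma fit on log2(FPKM + 1) (limma adjusted p 0.0509); over all alternatives its log2 fold change stayed negative. IGFBP1, the liver binding protein, had 3, 0, 3 and 0 counts. IGFALS, which joins IGFBP3 in the plasma complex, had 16 and 23 counts in the controls against 8 and 5 with REEP6 and was below the filter.

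Of 13 genes for proteases that act on IGFBPs and their inhibitors 6 were tested. Of these 2 (33.3%) were lower and 0 higher, against 14.2% and 10.9% of all genes tested. ADAM9, a membrane metalloprotease, went from 25.8 and 23.7 FPKM to 15.3 and 15.1 FPKM (log2 fold change -0.67 ± 0.087 SE, edgeR adjusted p 0.00108). STC1, a stanniocalcin that inhibits PAPPA, went from 1.37 and 1.78 FPKM to 0.601 and 0.725 FPKM and fell by 1.22 on the log2 scale; its call was lost with limma on log2(FPKM + 1) (log2 fold change -0.63, limma adjusted p 0.0644). STC1 passed the filter only through the controls, so its call adds no support to the count of the list. Its relative STC2 had 23.1 and 21.4 FPKM in the controls against 26.0 and 20.8 FPKM with REEP6 and did not pass (edgeR adjusted p 0.556). PAPPA itself, the protease that cuts IGFBP4, had counts of 136 and 141 in the controls against 95 and 70 with REEP6 and stayed below the filter at 0.455 to 0.914 FPKM. TIMP1 and the lysosomal protease CTSD did not pass (log2 fold changes -0.22 and -0.20). TIMP1 passed with equal FPKM sums (edgeR adjusted p 0.0215) and with a replicate block (edgeR adjusted p 0.00801). CTSD passed with the block (edgeR adjusted p 0.00465) and when REEP6 replicate 2 was left out (-0.48 on the log2 scale, edgeR adjusted p 0.0115), but its sign turned (0.03 and 0.04 on the log2 scale) when control replicate 2 or REEP6 replicate 1 was left out.

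Genes that process the precursors of ligands and receptors had 2 of 4 tested members lower and 0 higher. Of all genes tested 14.2% were lower and 10.9% higher. HSP90B1 (GRP94), the endoplasmic reticulum chaperone that IGFs need for folding, went from 302 and 299 FPKM to 197 and 189 FPKM (log2 fold change -0.61 ± 0.0829 SE, edgeR adjusted p 0.0013). PCSK7, a proprotein convertase, fell by 0.61 on the log2 scale, a call that was lost in the limma fit on log2(FPKM + 1) (limma adjusted p 0.0833). FURIN and PCSK4, further convertases, did not pass (log2 fold changes -0.21 and -0.36), and FURIN passed with equal FPKM sums (edgeR adjusted p 0.044) and with a replicate block (0.00176).

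The 3 genes for IGF2 mRNA-binding proteins were all well expressed, although few reads were counted for IGF2. IGF2BP2 had 31.6 and 28.1 FPKM in the controls against 38.7 and 37.8 FPKM with REEP6 and rose by 0.39 on the log2 scale (edgeR adjusted p 0.0135). IGF2BP1 rose by 0.40 (edgeR adjusted p 0.0254), and IGF2BP3 did not pass (-0.10). Both rises lost their calls without REEP6 replicate 1 (edgeR adjusted p 0.0561 for IGF2BP2 and 0.252 for IGF2BP1) and with equal FPKM sums (0.0945 and 0.101).

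Receptor adaptors and feedback genes had 6 of 14 tested members (42.9%) higher and 2 (14.3%) lower, against 10.9% and 14.2% of all genes tested, so the share that fell was at the background. The adaptor gene IRS1 had 18.8 and 16.8 FPKM in the controls against 23.9 and 22.1 FPKM with REEP6 (log2 fold change 0.40 ± 0.0923 SE, edgeR adjusted p 0.0132). IRS2 rose by 0.46 (edgeR adjusted p 0.00857), and GRB10, an adaptor that restrains both kinase receptors, rose by 0.49 (edgeR adjusted p 0.00462). NEDD4, a ubiquitin ligase that acts on IGF1R through GRB10, fell by 0.73 (edgeR adjusted p 0.00112). The IRS1 call was lost under equal FPKM sums (edgeR adjusted p 0.0858) and without REEP6 replicate 1 (0.079), and the IRS2 call without REEP6 replicate 2 (0.0559).

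In the PI3K, AKT and TOR list 3 of 24 tested genes (12.5%) were higher and 9 (37.5%) lower, against 10.9% and 14.2% of all genes tested. PIK3CA, a catalytic subunit of PI3K, fell by 0.81 on the log2 scale (edgeR adjusted p 0.000628), TSC1, a brake on TOR complex 1, by 0.64 (0.00142) and RICTOR, a subunit of the other TOR complex, by 0.59 (0.00424). EIF4EBP1, a translation repressor that TOR inactivates, rose by 0.54 (0.00575). Genes for activating and restraining proteins thus both appeared among those that fell.

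In the list of FOXO factors and targets, which AKT signalling holds back, 7 of 15 tested genes (46.7%) were lower and 1 (6.67%) higher, against 14.2% and 10.9% of all genes tested. SESN3 went from 5.73 and 6.30 FPKM to 2.42 and 2.49 FPKM (log2 fold change -1.27 ± 0.103 SE, edgeR adjusted p 0.000141). TXNIP, an inhibitor of thioredoxin and glucose uptake, fell by 1.95 (edgeR adjusted p 0.00382), with REEP6 replicate 1 lowest at 0.479 FPKM against 1.33 FPKM in REEP6 replicate 2, and its log2 fold change was -1.40 without REEP6 replicate 1 and -2.85 without REEP6 replicate 2. BCL6 fell by 0.69 and GADD45A by 0.77.

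Among partners of IGF2R and the binding proteins 2 of 8 tested genes (25%) were higher and 2 (25%) lower. The shares of all genes tested were 10.9% and 14.2%. The integrin genes ITGB1 (120 and 125 FPKM in the controls, 63.9 and 64.4 FPKM with REEP6) and ITGAV (71.6 and 70.8 FPKM, then 38.9 and 40.7 FPKM) fell by 0.91 and 0.81 on the log2 scale (edgeR adjusted p 0.000227 and 0.000387). ITGA5, whose product pairs with that of ITGB1, rose by 0.38 (edgeR adjusted p 0.036) and RACK1 by 0.29 (0.0388). Both of these rises lost their calls without REEP6 replicate 1 (edgeR adjusted p 0.105 and 0.278), without REEP6 replicate 2 (0.147 and 0.0766) and without control replicate 1 (0.11 and 0.101), and that of RACK1 also without control replicate 2 (0.116). The small rises depended on the tool as well: on log2(FPKM + 1) limma gave adjusted p of 0.0987 for IGF2BP1, 0.056 for IGF2BP2, 0.0611 for IRS1, 0.052 for IRS2, 0.0911 for ITGA5 and 0.112 for RACK1.

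**Figure D4:**
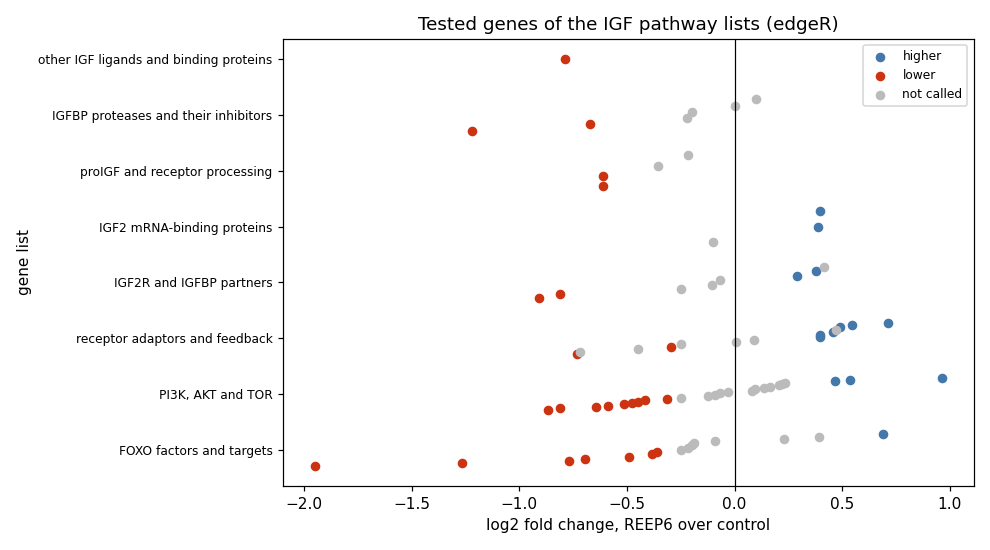
Log2 fold change of each tested gene in the 8 pathway lists, with blue for called higher, red for called lower and grey for not called at an edgeR adjusted p of 0.05. The adaptor list has 6 blue and 2 red points, the PI3K, AKT and TOR list 3 blue and 9 red, and the FOXO list 1 blue and 7 red.

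Across the 14 alternatives the family separated into genes that kept their call and genes that did not. IGFBP4 and IGFBP5 were called lower in 14 of 14, IGFBP3 in 9 of the 13 that tested it and IGFBP7 in 6 of 14. IGF2R was called lower in 2 of 14 and IGFBP2 higher in 1 of 14, while IGF1R, INSR and IGFBP6 were called in 0.

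**Figure D5:**
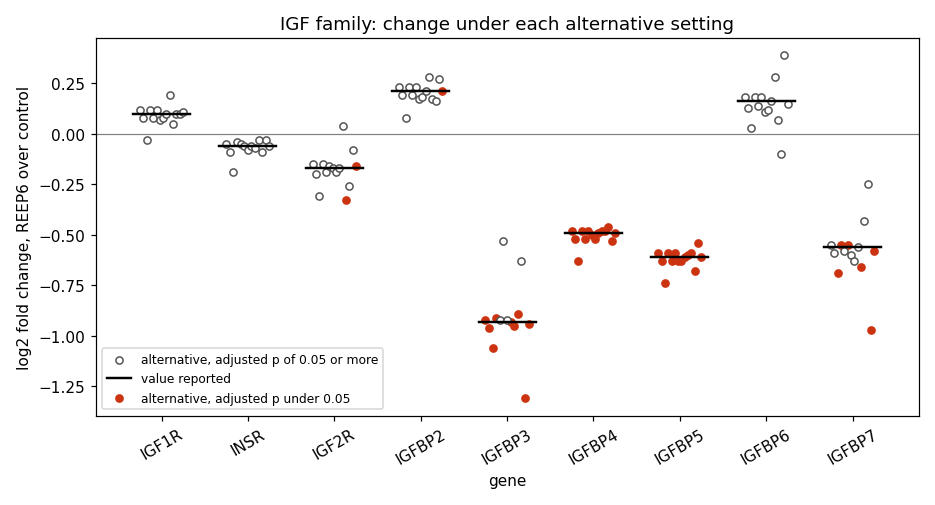
Log2 fold change of REEP6 over control for each of the 9 tested members (black line) and under each alternative (dots, red where the adjusted p was under 0.05). IGFBP4 (-0.63 to -0.46) and IGFBP5 (-0.74 to -0.54) stay in narrow bands of red dots, and IGFBP7 spreads from -0.97 to -0.25.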

How the data were processed

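The authors deposited per library, a table of raw counts and FPKM over 51103 Ensembl genes, per the file headers. The submitters' processing notes name HISAT2, HTSeq 0.13.5 and GRCh38 without saying what each was used for. Annotation and strand setting: not given in the sources used here. For 100.0% of 29161 genes with a count, count over FPKM gave 1 length per gene in all libraries (relative tolerance 0.0001), so the deposited FPKM was scaled to the total count. Coordinates are from GENCODE 29 (GRCh38), which held all 51103 identifiers.

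Genes with at least 1 FPKM in at least 2 libraries (13077) were tested on counts by the quasi-likelihood method of edgeR 4.0.16 (R 4.3.3) with TMM scaling, all 4 libraries and 2 residual degrees of freedom, two-sided, with Benjamini-Hochberg adjustment over all genes tested and a threshold of 0.05. The standard error is the log2 fold change over the square root of F. An exact permutation test of these libraries cannot go below p = 0.333, so none was run. The method was tested on simulated data. The alternatives were other scalings and filters, DESeq2 1.42.0, limma 3.58.1, no abundance trend, 1 library left out, and a replicate block. Members and lists were chosen with earlier results of these data known. Named were all members, up to 4 genes with the smallest p per pathway list, and direct partners of members.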

Additional observations from a re-analysis of the deposited data

How the results depend on the processing

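Each result was recomputed under 14 alternatives. The count of IGF members lower (3) was between 2 and 4 with 1 library left out, 2 with limma and 4 with equal FPKM sums, and members higher were 0 except with a replicate block. Under equal FPKM sums the median over all tested genes moved to -0.14 (log2). Over all genes, 1422 were higher and 1854 lower. The counts became 661 and 2824 with equal FPKM sums, 634 and 1272 with limma on log2(FPKM + 1), 597 and 1233 with limma on log2(FPKM + 0.1), and 936 and 1411 with a minimum of 5 FPKM, where fewer genes were tested; leaving out 1 library gave 940 to 1495 higher and 1272 to 1717 lower. Of the pathway genes, 14 were higher and 25 lower. These became 6 and 33 with equal FPKM sums, 5 and 15 with either limma fit, 9 and 19 with a minimum of 5 FPKM, 8 and 20 with no abundance trend, and 7 to 14 higher and 19 to 24 lower without 1 library. The cause of these changes in the counts was not tested.

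Log2 fold changes that changed sign, none of them called where the sign differed, were those of IGF1R with equal FPKM sums (-0.03) and STC2 with equal FPKM sums (-0.03), and, with 1 library left out, IGF2R (-0.33 to 0.04), IGFBP6 (-0.10 to 0.39), CTSD (-0.48 to 0.04) and STC2 (-0.08 to 0.26). A group left with 1 library was assumed to vary like the other. The labels do not say that replicate numbers pair the samples; deviations of same-numbered libraries correlated at 0.331 across 13077 genes. With a replicate block 1 IGF member was higher (IGFBP2) and 5 lower (IGFBP7 and IGF2R added), with 2957 genes higher and 3062 lower in all, and 20 pathway genes higher and 33 lower. The IGF2 counts of 5 to 19 allow no statement on its direction.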
